A study of Homo sapiens with 12 samples.

Results

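The study was read through 8 genes that cells use when they switch to fat as fuel: PPARA, PPARGC1A, PDK4, CPT1A, ACADM, ACADVL, PLIN2 and ANGPTL4. They were chosen by name as known genes of fatty acid oxidation and of the fasting response to peroxisome proliferator-activated receptors (PPARs), and all 8 are among the 54553 genes in the deposited tables. The cells were Caco-2, established from a human colorectal adenocarcinoma and able to become like absorptive enterocytes, described in the labels as wild type and sub-confluent at treatment. Gene expression was measured by stranded total RNA sequencing after removal of ribosomal RNA, in 12 libraries that form 4 groups of 3.

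All groups were kept for 48 h, in media that all had non-essential amino acids at 0.1 mM and pyruvate at 1 mM. The depleted bafilomycin A1 group was kept in glucose- and glutamine-free DMEM with 0.1 g/L glucose, 0.2 mM glutamine and 1% serum, plus 100 nM bafilomycin A1, which blocks the V-ATPase and with it the acidification of lysosomes. The depleted vehicle group had the same medium with vehicle. The rich bafilomycin A1 group was kept in EMEM with 1 g/L glucose, 2 mM glutamine and 20% serum, plus 100 nM bafilomycin A1, and the rich vehicle group had that medium with vehicle. The media thus differ in basal formula, glucose, glutamine and serum, the source of fatty acids and lipoproteins, and the parts of these cannot be told apart. A single cell line was studied at a single time, nothing in the labels says that replicates were separate cultures, and all p-values rest on the spread between libraries, which may be technical.

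In fasted tissue, fatty acids released from fat bind PPARα, the nuclear receptor encoded by PPARA. With its partner RXR it then switches on genes for fatty acid import, oxidation, storage and export, helped by the coactivator PGC-1α, the product of PPARGC1A. PDK4 phosphorylates and inactivates pyruvate dehydrogenase, so that pyruvate is spared and fat is burned. CPT1A joins long-chain fatty acids to carnitine at the outer mitochondrial membrane, the controlled step of their import. ACADVL and ACADM, the very-long-chain and medium-chain acyl-CoA dehydrogenases, open the cycle of β-oxidation. PLIN2 coats lipid droplets in most cell types, and ANGPTL4 is a secreted inhibitor of lipoprotein lipase. In the intestine PPARα is known for its part in the handling of dietary fat.

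The genes PPARA, PLIN2 and ANGPTL4 were higher in depleted medium with bafilomycin A1 than in rich medium with vehicle. Their promoter windows are shown because these are the 3 members called higher in that comparison, to let a reader see what lies at their start sites. The windows span 250 bases before to 50 bases after the start, from RefSeq on GRCh38.p14, written 5′ to 3′ on the gene's strand, and all 8 members matched a window. Capitals mark a motif match.
PPARA, chr22:46150276-46150575, plus strand: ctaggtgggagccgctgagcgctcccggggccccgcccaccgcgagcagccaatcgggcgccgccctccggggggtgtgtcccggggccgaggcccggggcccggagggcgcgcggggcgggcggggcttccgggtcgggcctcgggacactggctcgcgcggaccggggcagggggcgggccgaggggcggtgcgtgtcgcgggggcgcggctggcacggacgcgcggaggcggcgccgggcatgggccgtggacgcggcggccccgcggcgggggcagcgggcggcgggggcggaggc
PLIN2, chr9:19127443-19127742, minus strand: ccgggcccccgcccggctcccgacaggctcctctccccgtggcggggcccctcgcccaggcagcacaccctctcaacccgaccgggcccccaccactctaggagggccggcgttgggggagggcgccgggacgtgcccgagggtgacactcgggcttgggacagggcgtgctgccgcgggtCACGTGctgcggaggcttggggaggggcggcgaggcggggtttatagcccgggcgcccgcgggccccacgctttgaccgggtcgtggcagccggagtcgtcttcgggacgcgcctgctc
ANGPTL4, chr19:8363905-8364204, plus strand: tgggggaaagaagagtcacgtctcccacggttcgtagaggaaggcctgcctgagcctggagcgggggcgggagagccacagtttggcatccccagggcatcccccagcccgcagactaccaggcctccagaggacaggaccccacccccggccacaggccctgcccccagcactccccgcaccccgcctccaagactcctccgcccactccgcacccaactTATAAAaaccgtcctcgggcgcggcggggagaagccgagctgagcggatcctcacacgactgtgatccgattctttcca

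The capitals in PLIN2 are CACGTG, which starts 69 bases before the start site. These letters form an E-box and are also the core of the element bound by lysosomal regulators of the MiT/TFE family. Only the core was searched, not the longer element, and the letters do not tell which factor binds. That core, searched on both strands, is in 7.26% of the 35116 RefSeq windows of this length, and among members it is otherwise in 1 of the PPARGC1A windows. The capitals in ANGPTL4 are a TATA box, TATAAA, which starts 29 bases before the start site. Searched on the gene's own strand, these letters are in 7.33% of the windows. The printed PPARA window holds neither and consists of 85.7% G and C, against a median of 58.7% over all windows. Another PPARA start site has its own window, not printed, which also holds neither and consists of 86.7% G and C. The core AGGTCA of the PPAR response element (13.8% of windows, both strands) and the direct repeat of AGGTCA with 1 base of any kind between the copies, with up to 2 mismatches (2.97% of windows, both strands) were in none of the 11 member windows. A match is a description of letters, and their absence says nothing on distant elements.

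Depth ran from 12969814 to 51649213 gene-assigned reads per library. Rich vehicle replicate 1 was the shallow one, and the other 11 held at least 33859998. Colon epithelial markers were present, with 9 of 10 tested and CDX1 below the filter on low counts. Their summed level was 3060 to 3560 CPM (reads scaled to library size, with TMM factors) in depleted bafilomycin A1, 4990 to 6100 CPM in depleted vehicle, 5960 to 7550 CPM in rich bafilomycin A1 and 7240 to 10200 CPM in rich vehicle libraries. In bulk RNA, fewer cells of a type and less RNA per cell cannot be told apart. Rich bafilomycin A1 replicate 3 was closer to the depleted vehicle libraries (Spearman rho 0.984 to 0.991 across 13518 genes) than to its own group (rho 0.982). That library and the shallow one are called the libraries that stand apart, and values without both are given beside the calls that ended without them. The rich vehicle libraries were the least alike within a group, at rho 0.962 to 0.970, against 0.982 or more within the other groups. Rich vehicle replicate 2 reached rho 0.972 with a rich bafilomycin A1 library, above its values within its own group.

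Of the 8 genes 7 passed the filter on low counts, and PPARGC1A did not. Calls are edgeR quasi-likelihood tests at a Benjamini-Hochberg adjusted p under 0.05 over all 18047 genes tested. With bafilomycin A1 in rich medium 2 members were higher, PPARA and PLIN2, and 0 lower, where 6.15% of all genes were higher and 4.78% lower. With depletion under vehicle 1 was higher, PPARA, and 0 lower, where 15.5% of genes were higher and 15.4% lower. With bafilomycin A1 in depleted medium 0 members passed by edgeR or by DESeq2, against 5.5% of genes higher and 5.91% lower. At an unadjusted p under 0.05 that comparison had 1 member, PLIN2. Depletion under bafilomycin A1 called 1 member higher, PPARA, and 0 lower, against 10.5% and 13.6% of genes. For both treatments together against rich vehicle 3 members were higher, PPARA, PLIN2 and ANGPTL4, and 0 lower, against 21.6% of genes in each direction. The interaction subtracts the response to bafilomycin A1 in rich medium from that in depleted medium. It called 1 member lower, PPARA, where 2.35% of genes were higher and 3.83% lower. The median log2 fold change over the 7 members lay between -0.38 in the interaction and 0.44 with bafilomycin A1 in rich medium, and that of all genes between -0.05 and 0.04. The 3 comparisons against rich vehicle share the rich vehicle libraries, so their values are not independent of each other.

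**Figure D1:**
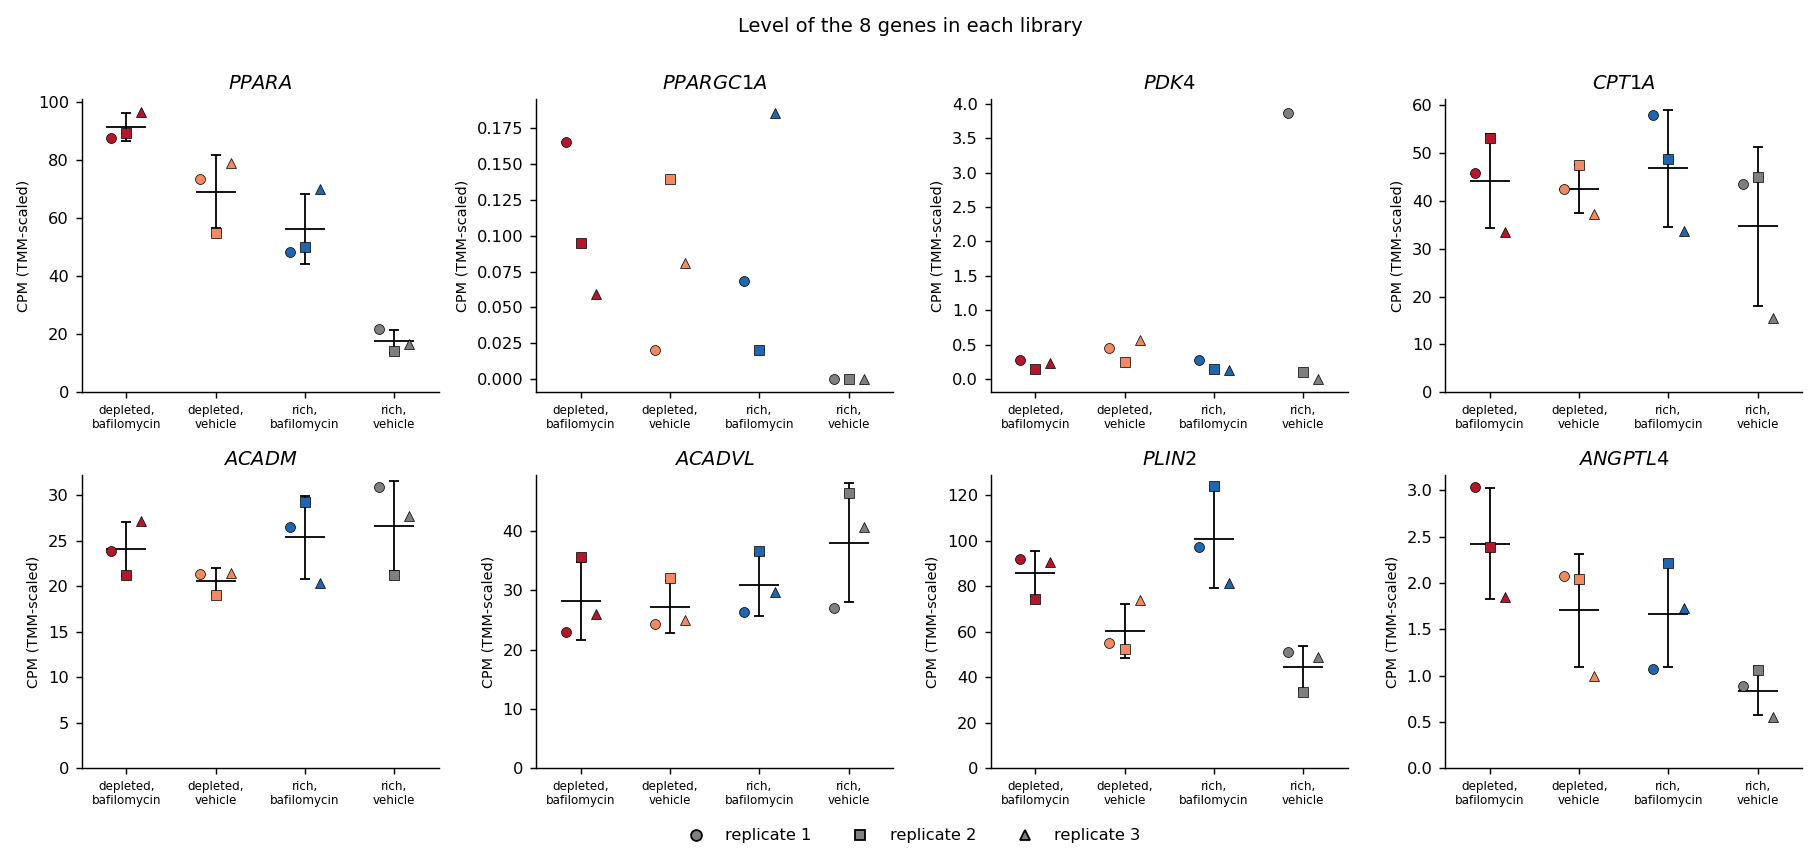
Level of each of the 8 genes (y axis, TMM-scaled CPM, linear from 0) in the 12 libraries, by group (x axis). Symbols are replicates 1 to 3, horizontal lines the mean and bars the SD over 3 libraries, drawn for 6 genes and left out for PPARGC1A and PDK4, which rest on few reads. PPARA is lowest in all 3 rich vehicle libraries, at 14.1 to 21.7 CPM, and the high PDK4 value of 3.87 CPM is rich vehicle replicate 1.

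PPARA (ENSG00000186951.16, chr22:46150521-46243756, plus strand, GENCODE v29 on GRCh38) encodes the receptor. It stood at 87.7, 89.3 and 96.7 CPM in depleted bafilomycin A1 libraries and 73.6, 54.8 and 78.9 CPM in depleted vehicle libraries. In rich bafilomycin A1 libraries it stood at 48.2, 50.2 and 70.1 CPM, and in rich vehicle libraries at 21.7, 14.1 and 16.8 CPM. Every treated library lay above every rich vehicle library. Of all genes, 26.4% were higher without overlap with both treatments, 23% with depletion and 14.9% with bafilomycin A1 in rich medium. The group means ran 91.2 ± 4.80, 69.1 ± 12.7, 56.2 ± 12.1 and 17.5 ± 3.82 CPM in that order (SD, n = 3), and the depleted vehicle and rich bafilomycin A1 groups, neighbours in this order, overlapped. Depletion with vehicle raised PPARA 3.97-fold (log2 fold change 1.99, SE 0.20, edgeR adjusted p = 2.15e-05), bafilomycin A1 in rich medium 3.23-fold (1.69, SE 0.20, adjusted p = 0.000287) and both together 5.24-fold (2.39, SE 0.20, adjusted p = 8.23e-07).

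In depleted medium the log2 difference of PPARA with bafilomycin A1 was 0.40 (SE 0.19), which did not pass (edgeR adjusted p = 0.199), although the groups did not overlap, as was so for 19.8% of all genes in this direction. Depletion on top of bafilomycin A1 raised it by 0.70 (SE 0.19, adjusted p = 0.0151). That call ended without rich bafilomycin A1 replicate 1 (0.60, adjusted p = 0.081) or 2 (0.62, adjusted p = 0.0801) and without depleted bafilomycin A1 replicate 3 (0.66, adjusted p = 0.0532). The interaction was -1.29 (SE 0.27, adjusted p = 0.0145), and without any 1 library its adjusted p lay between 0.00981 and 0.049. On counts, the bafilomycin A1 response of PPARA was thus smaller in depleted than in rich medium.

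The transcripts counted as PPARA also differed in length. The deposited tables give each gene a length weighted by the estimated abundance of its transcripts in that library. For PPARA it was 9669, 9189 and 9970 bases in depleted bafilomycin A1 libraries, 9287, 8358 and 9193 in depleted vehicle, 9547, 8641 and 9483 in rich bafilomycin A1, and 4865, 8080 and 6238 in rich vehicle. All rich vehicle values lie below all others. GENCODE v29 lists 12 PPARA transcripts, 2 of them longer than 9 kb (9965 and 9995 bases) and 10 shorter than 2 kb. The log2 ratio of mean lengths was 0.59 for both treatments together, 0.48 for depletion and 0.53 for bafilomycin A1 in rich medium, at percentiles 99.7, 99.5 and 99.8 of all genes tested. In those comparisons 7.35%, 6.47% and 4.72% of genes were longer without overlap. Among the other members only ACADVL with bafilomycin A1 in rich medium was longer without overlap, at 2190 to 2197 bases against 2184 to 2188.

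A longer transcript yields more reads per molecule, so levels per length are given too. In TPM, which divides by length, PPARA stood at 12.9, 14.6 and 10.3 in depleted bafilomycin A1 libraries and 9.56, 6.53 and 8.84 in depleted vehicle libraries. In rich bafilomycin A1 it was 6.04, 6.90 and 7.66 TPM, and in rich vehicle 7.74, 2.70 and 2.30 TPM. The rich bafilomycin A1 and depleted vehicle groups overlapped rich vehicle on this scale through rich vehicle replicate 1, while the depleted bafilomycin A1 group did not. As TMM-scaled CPM per kb, PPARA lay at 9.26 to 10.1, 6.88 to 8.92 and 5.28 to 7.69 in the 3 treated groups in that order, all above the 1.83 to 4.79 of rich vehicle libraries. A fit with each library's effective gene length as an offset, chosen after seeing these lengths, gave PPARA log2 fold changes of 1.73 for both treatments (SE 0.25, edgeR adjusted p = 7.34e-05), 1.42 for depletion (SE 0.25, adjusted p = 0.000755) and 1.08 for bafilomycin A1 in rich medium (SE 0.25, adjusted p = 0.0133). It ended the call of depletion under bafilomycin A1 (0.65, SE 0.24, adjusted p = 0.0627) and that of the interaction (-0.77, SE 0.35, adjusted p = 0.207). The higher level of PPARA in the 3 comparisons against rich vehicle thus passed with and without the length offset, and its interaction passed without it.

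**Figure D2:**
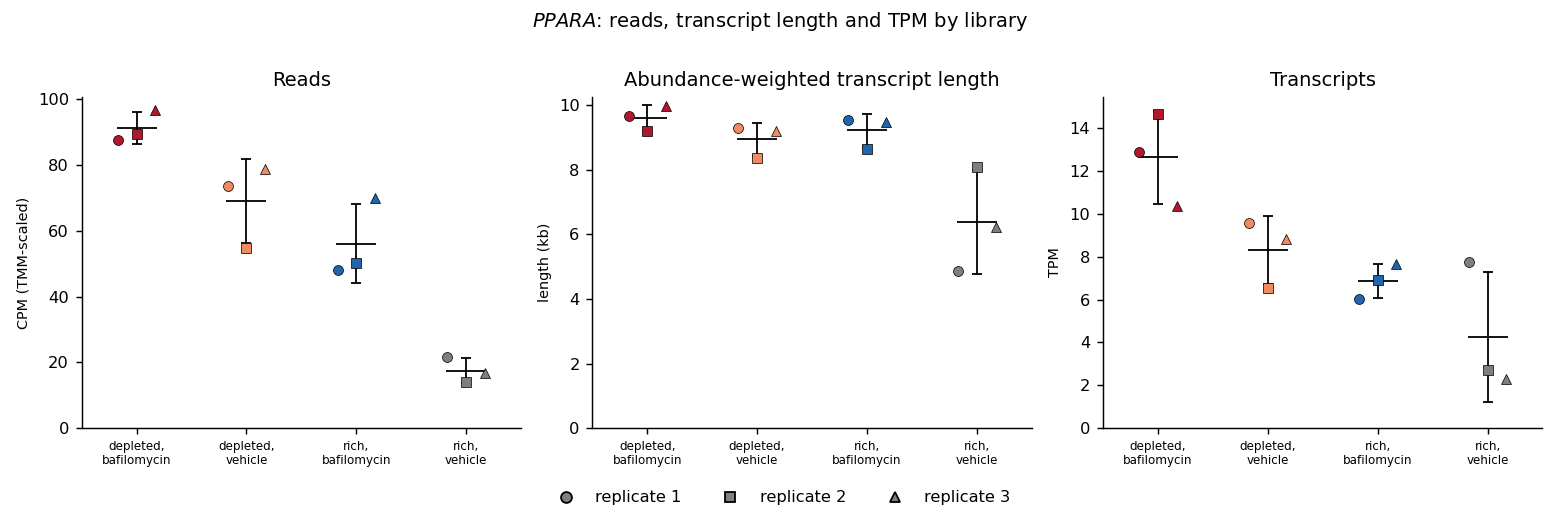
PPARA in the 12 libraries by group (x axis): reads as TMM-scaled CPM, abundance-weighted transcript length in kb, and TPM (y axes, linear from 0). Symbols are replicates 1 to 3, with the mean and SD over 3 libraries. All 3 rich vehicle libraries have shorter lengths (4865 to 8080 bases) than the other 9, and rich vehicle replicate 1 has 7.74 TPM.

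Over the 12 libraries, the genes whose log2 levels followed PPARA most closely were RSPH3, TMCC3 and FOXN3 (Pearson r = 0.988, 0.983 and 0.982 over 12 libraries, among 11354 genes that averaged 5 CPM or more). These libraries share the group differences, so r is a description. Among the members, the level of PPARA followed ANGPTL4 (r = 0.743) and PLIN2 (r = 0.683) and ran against ACADVL (r = -0.657).

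PPARGC1A (chr4:23755041-23904089, minus strand), whose product coactivates PPARα, was near the limit of detection. It had 9, 4 and 2 reads in depleted bafilomycin A1 libraries, 1, 5 and 3 in depleted vehicle, 3, 1 and 7 in rich bafilomycin A1, and 0, 0 and 0 in rich vehicle. Every treated library had at least 1 read and no rich vehicle library had any. How many other genes this rare show the same pattern was not counted. As group sums these were 15, 9, 11 and 0 reads, or 0.115, 0.0738, 0.0844 and 0 CPM, with exact Poisson 95% intervals of 0.0645 to 0.19, 0.0337 to 0.14 and 0.0421 to 0.151 CPM for the treated groups, which cover counting error only. The summed depth of rich vehicle was the lowest, and its 0 reads allow up to 0.0336 CPM by a floor of 3 reads over the group. The upper end of the same Poisson interval is 0.0413 CPM there, which lies within the depleted vehicle interval. PPARGC1A entered no test.

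PDK4 (chr7:95583499-95596491, minus strand), the kinase that shuts pyruvate dehydrogenase, was also rare, and 1 library decided its direction. It had 15, 6 and 8 reads in depleted bafilomycin A1 libraries, 22, 9 and 21 in depleted vehicle, 12, 7 and 5 in rich bafilomycin A1, and 52, 4 and 0 in rich vehicle. The shallow rich vehicle replicate 1 held 52 of the 56 reads of its group, at 3.87 CPM, while the other 11 libraries lay at 0.568 CPM or below. The fitted log2 fold changes were -1.51 for depletion (SE 1.17), -2.70 for bafilomycin A1 in rich medium (SE 1.24) and -2.44 for both (SE 1.22), and none passed (edgeR adjusted p = 0.35, 0.18 and 0.121). Without that library they were 2.93 (adjusted p = 0.0293), 1.74 (adjusted p = 0.283) and 2.00 (adjusted p = 0.105), so depletion then called PDK4 higher. Without rich vehicle replicate 3 instead, bafilomycin A1 in rich medium (-3.34, adjusted p = 0.0411) and both treatments (-3.08, adjusted p = 0.021) called it lower, as did 2 fits described at the end.

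The same library stood out in markers of other cell types. Of 24 markers of fibroblasts, immune cells, endothelium, adipocytes and striated muscle, 5 were highest there. These were PLIN1 (2.68 CPM, against at most 0.417 CPM elsewhere), CDH5 (3.05, at most 0.891), DCN (1.49, at most 0.0596), COL3A1 (5.43, at most 3.64) and PECAM1 (10.6, at most 8.71). The adipocyte markers ADIPOQ and LEP had 0 reads there, as did KDR, PTPRC, CKM, MYH7 and MYH2. Summed levels of the adipocyte list, mostly CIDEC, were 2.15 to 3.90 CPM in depleted bafilomycin A1, 3.74 to 6.30 CPM in depleted vehicle, 8.78 to 12.6 CPM in rich bafilomycin A1 and 2.12 to 9.59 CPM in rich vehicle libraries. Their part in the PDK4 value was not tested. The genes closest to PDK4 over the libraries were SMAD2, TF and FNBP1L (r = 0.931, 0.865 and 0.863), a likeness that includes that library.

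CPT1A (chr11:68754620-68844410, minus strand), the import step, was called in no comparison. It stood at 45.8, 53.1 and 33.5 CPM in depleted bafilomycin A1 libraries, 42.5, 47.4 and 37.4 CPM in depleted vehicle, 57.9, 48.7 and 33.7 CPM in rich bafilomycin A1, and 43.5, 44.9 and 15.5 CPM in rich vehicle. Replicate 3 was the lowest library of each of the 4 groups, and all groups overlapped. The log2 fold change was 0.36 for both treatments against rich vehicle, 0.30 for depletion and 0.44 for bafilomycin A1 in rich medium (SE 0.32 each). Without rich vehicle replicate 3 these were 0.00, -0.06 and 0.09. Its closest genes were ARL10, ELOVL7 and NRCAM (r = 0.922, 0.903 and 0.9).

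Neither acyl-CoA dehydrogenase was called in any comparison in the fit of 12 libraries to 4 group means, and other fits called ACADVL lower. ACADVL (chr17:7217125-7225273, plus strand) stood at 23.0, 35.6 and 25.9 CPM in depleted bafilomycin A1 libraries, 24.3, 32.1 and 24.9 CPM in depleted vehicle, 26.4, 36.6 and 29.7 CPM in rich bafilomycin A1, and 27.0, 46.5 and 40.7 CPM in rich vehicle. Replicate 2 was the highest in every group, and groups overlapped in every comparison. For depletion with vehicle the log2 fold change was -0.49 (SE 0.22, edgeR adjusted p = 0.103), which did not pass. Without the shallow rich vehicle replicate 1 it was -0.69 and passed (edgeR adjusted p = 0.0225), and for both treatments it was then -0.63 (adjusted p = 0.024). Without both libraries that stand apart ACADVL was called lower with depletion (-0.69, adjusted p = 0.0269) and with both treatments (-0.63, adjusted p = 0.029) too, and a fit of all 12 libraries that also called it is given at the end. ACADVL shares 2717 bases with DLG4 on the opposite strand, which had 15 to 58 reads, against 363 to 1785 for ACADVL. Its closest genes were MPDU1, RPN1 and CD302 (r = 0.937, 0.93 and 0.912).

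ACADM (chr1:75724347-75787575, plus strand), the medium-chain enzyme, stood at 23.9, 21.3 and 27.2 CPM in depleted bafilomycin A1 libraries, 21.3, 19.1 and 21.5 CPM in depleted vehicle, 26.5, 29.2 and 20.4 CPM in rich bafilomycin A1, and 31.0, 21.2 and 27.7 CPM in rich vehicle. The groups overlapped in every comparison. It passed only for depletion with vehicle without rich vehicle replicate 2 (-0.50, edgeR adjusted p = 0.0478), and its value over all libraries was -0.36 (SE 0.19, adjusted p = 0.148). ACADM overlaps RABGGTB on the same strand over 1379 bases, and that gene had 487 to 1743 reads, against 416 to 1427 for ACADM, so reads in the overlap could be split between them. Its closest genes were SEPTIN2, SBDS and PLPBP (r = 0.947, 0.938 and 0.934).

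PLIN2 (chr9:19108375-19149290, minus strand), the lipid droplet coat gene whose window with CACGTG is printed above, was the member with the highest level per length. It stood at 92.0, 74.4 and 90.8 CPM in depleted bafilomycin A1 libraries, 54.9, 52.4 and 74.0 CPM in depleted vehicle, 97.1, 124.2 and 81.4 CPM in rich bafilomycin A1, and 51.0, 33.6 and 48.8 CPM in rich vehicle. In both media the bafilomycin A1 libraries lay above the vehicle libraries without overlap, as for 19.8% of all genes in depleted and 14.9% in rich medium, and in depleted medium the gap was 74.4 against 74.0 CPM. Bafilomycin A1 in rich medium raised PLIN2 2.27-fold (log2 fold change 1.18, SE 0.20, edgeR adjusted p = 0.00274). Both treatments together raised it 1.93-fold over rich vehicle (0.95, SE 0.20, adjusted p = 0.00147).

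In depleted medium the log2 difference of PLIN2 with bafilomycin A1 was 0.50 (SE 0.20), which did not pass in the fit of 12 libraries (edgeR adjusted p = 0.119) and passed in a fit of the 6 libraries compared (adjusted p = 0.0329). Depletion with vehicle gave 0.45 (SE 0.20, adjusted p = 0.105), also without overlap, as for 23.0% of all genes in this direction. Depletion under bafilomycin A1 gave -0.23 (SE 0.20, adjusted p = 0.434). The interaction was -0.68 (SE 0.28, adjusted p = 0.166), so the bafilomycin A1 responses of PLIN2 in the 2 media were not shown to differ. Its weighted length lay between 1874 and 1898 bases in all 12 libraries, and with the length offset the rich-medium response was 1.19 (adjusted p = 0.00221). The genes closest to PLIN2 were BNIP3L, PGM1 and RIPOR2 (r = 0.949, 0.926 and 0.921).

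ANGPTL4 (chr19:8363289-8374373, plus strand), the lipase inhibitor, was low but rose when both treatments were combined. It stood at 3.04, 2.39 and 1.85 CPM in depleted bafilomycin A1 libraries, 2.07, 2.04 and 1.00 CPM in depleted vehicle, 1.07, 2.21 and 1.73 CPM in rich bafilomycin A1, and 0.893, 1.06 and 0.550 CPM in rich vehicle. These are 62 to 165, 37 to 102, 47 to 108 and 12 to 40 reads. Both treatments together raised it 2.92-fold over rich vehicle (log2 fold change 1.55, SE 0.42, edgeR adjusted p = 0.00824). Without any 1 library that adjusted p lay between 0.00659 and 0.0388.

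Neither treatment alone passed for ANGPTL4. Bafilomycin A1 in rich medium gave a log2 fold change of 1.01 (edgeR adjusted p = 0.14), with treated libraries just above the vehicle ones, as for 14.9% of all genes in this direction. Depletion gave 1.04 (adjusted p = 0.0754), where depleted vehicle replicate 3 lay within the rich vehicle range, and without that library it was 1.29 (adjusted p = 0.0449). In the authors' series-wide count table the same test gave 1.07 (adjusted p = 0.0475). The interaction was not called (-0.50, SE 0.58, adjusted p = 0.659). The genes closest to ANGPTL4 were KDM5B, PPP1R3E and ZNF490 (r = 0.913, 0.906 and 0.905).

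**Figure D3:**
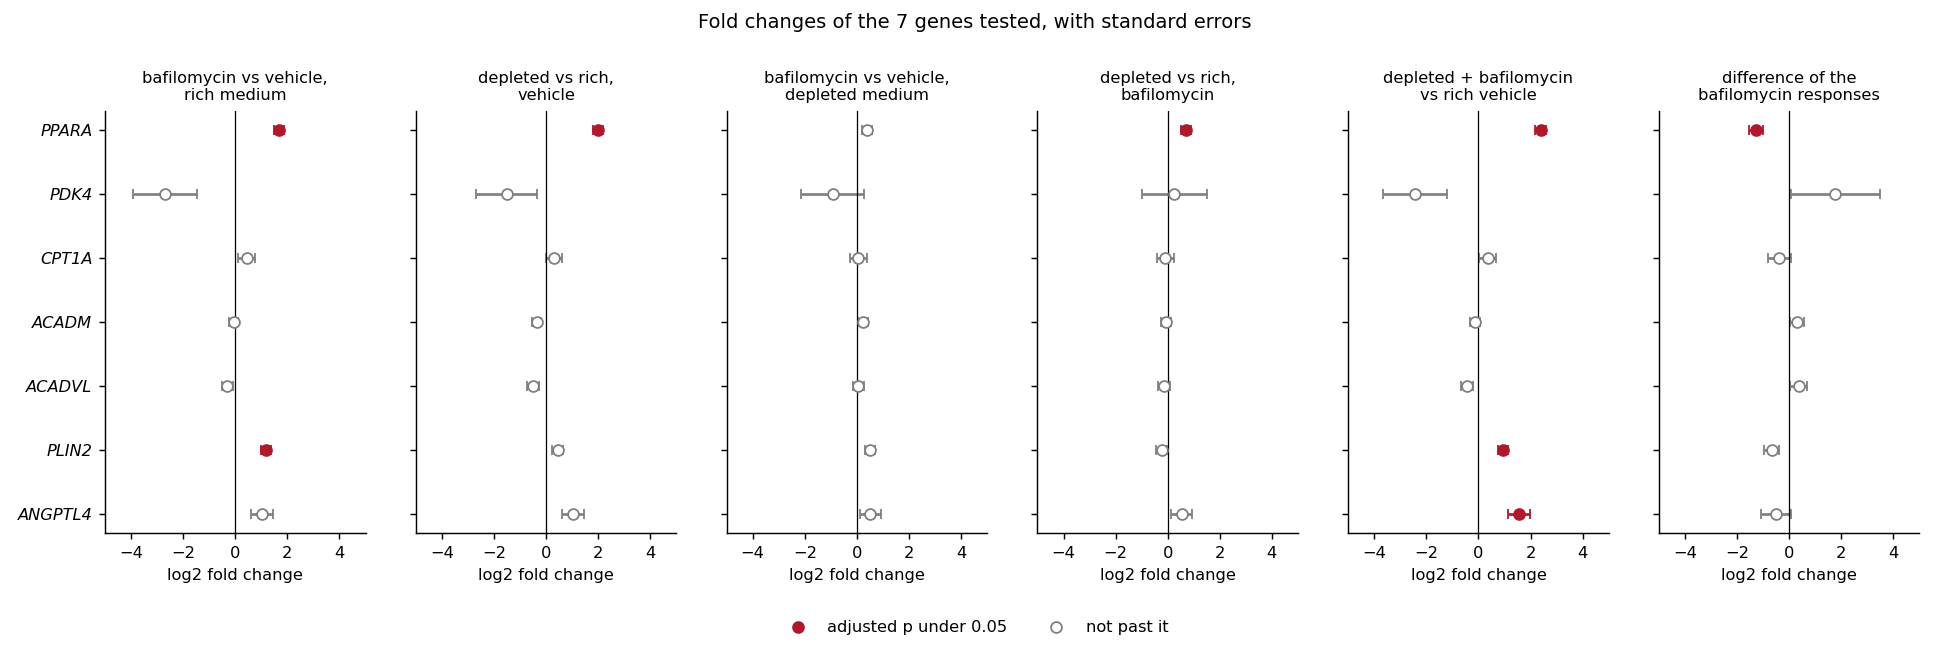
Log2 fold change (x axis) with its SE for the 7 genes tested (y axis) in 5 comparisons and the interaction, from 1 edgeR fit of 12 libraries. Filled red points passed an adjusted p under 0.05 and open grey points did not. PPARA is filled in 5 of the 6 panels, and PDK4 has the widest errors, with an SE of 1.24 for bafilomycin A1 in rich medium.

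Levels can be compared between genes only per length. By the median CPM per kb of effective length over 12 libraries, PLIN2 was highest at 44.2, followed by ACADVL at 14.6, ACADM at 11.5, CPT1A at 9.93 and PPARA at 7.28. ANGPTL4 had 1.02, PDK4 0.0694 and PPARGC1A 0.0112 CPM per kb. Over all 12 libraries ACADVL (11.3 to 23.4), ACADM (9.57 to 14.9), CPT1A (3.48 to 13.6) and PPARA (1.83 to 10.1) overlapped with their neighbours in this order. PLIN2 overlapped ACADVL only through its rich vehicle replicate 2, at 20.1 CPM per kb.

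Close relatives of the members were read with them, with no test of one gene against another. The receptor gene PPARD was higher by 1.07 with both treatments (SE 0.19, edgeR adjusted p = 0.000284), by 0.72 with depletion (adjusted p = 0.00787) and by 0.66 with bafilomycin A1 in rich medium (adjusted p = 0.0317), while PPARG, the adipocyte receptor, passed in none of these (-0.05, -0.26 and 0.58). The PPARD call in rich medium ended without rich vehicle replicate 1 (adjusted p = 0.0754), rich bafilomycin A1 replicate 2 or 3 (0.0961 and 0.113), depleted vehicle replicate 1 (0.052) or both libraries that stand apart (0.167). Among the pyruvate dehydrogenase kinases, PDK1 had the highest mean CPM over the 12 libraries, a measure not divided by length. PDK1 averaged 31.6 ± 1.42 CPM in depleted bafilomycin A1 and 15.6 ± 2.50 CPM in depleted vehicle libraries, and 55.2 ± 18.1 CPM in rich bafilomycin A1 and 26.4 ± 7.94 CPM in rich vehicle libraries (SD, n = 3 each). Bafilomycin A1 raised PDK1 by 1.02 in depleted medium (adjusted p = 0.0143) and by 1.06 in rich medium (adjusted p = 0.0127), and depletion with vehicle lowered it (-0.76, adjusted p = 0.028). The call in rich medium ended without rich bafilomycin A1 replicate 2 (0.78, adjusted p = 0.0649). In depleted medium it ended without depleted vehicle replicate 1 or 2 or depleted bafilomycin A1 replicate 3 (adjusted p = 0.0703, 0.0664 and 0.0564). The lower level of PDK1 with depletion did not pass without rich vehicle replicate 1 or 3 or depleted vehicle replicate 1 or 2 (adjusted p = 0.0677, 0.118, 0.105 and 0.0887), without both libraries that stand apart (0.0528), or with the length offset (0.0604). PDK2 was higher with depletion (1.17, adjusted p = 0.00121). PLIN3 passed in none of the 6 comparisons, and PLIN1, PLIN4 and PLIN5 averaged less than 1 CPM in every group.

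**Figure D4:**
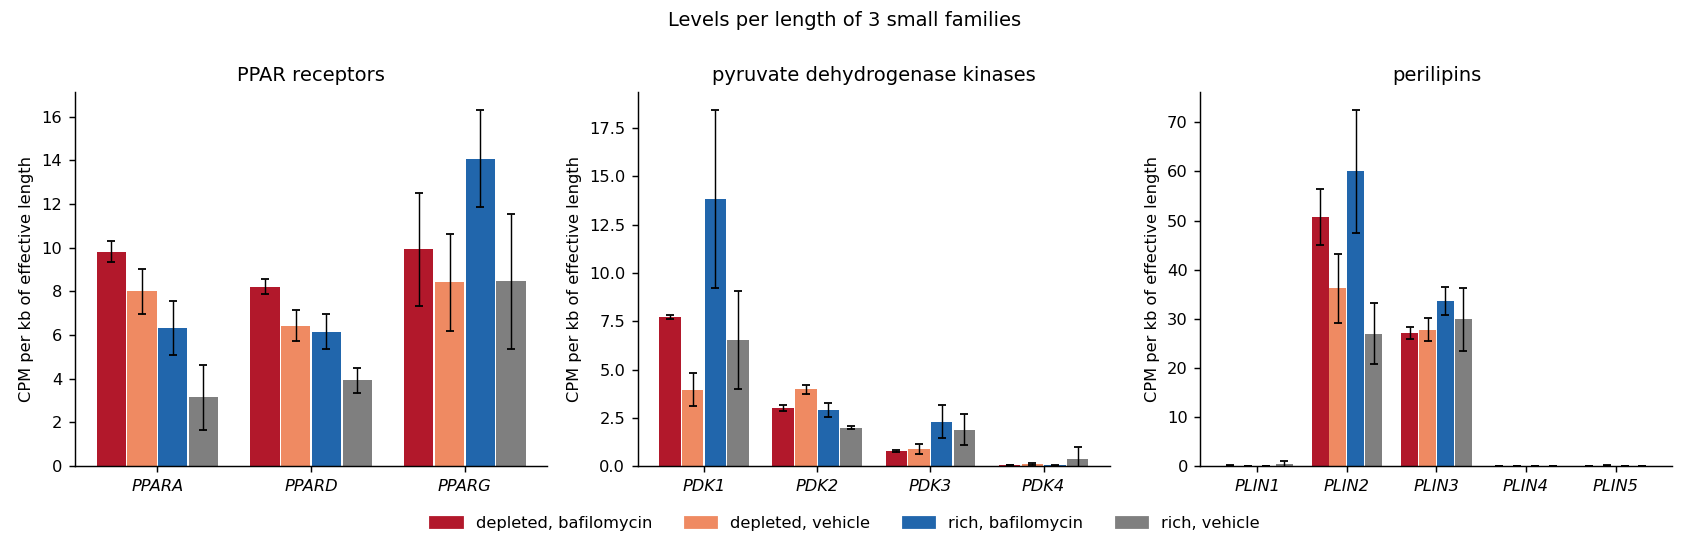
Mean level per length (y axis, CPM per kb of effective length, from 0) of PPAR receptors, pyruvate dehydrogenase kinases and perilipins, by group (colours), with the SD over 3 libraries. PDK4, PLIN1, PLIN4 and PLIN5 are close to 0, while PLIN2 averages 50.8 CPM per kb in depleted bafilomycin A1 and 27.0 CPM per kb in rich vehicle libraries.

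A further 9 lists of pathway genes, which hold the members where they belong, were read beside them. The lists also share other genes, so their counts are not independent. CREB3L3 and LPIN1 are among both the receptors with cofactors and the PPAR targets. G0S2 is among both the targets and the lipid droplet genes, and SLC25A20 and ACSL5 among both the targets and the mitochondrial oxidation genes. Among all genes, 21.6% were called in each direction with both treatments, and 15.5% higher and 15.4% lower with depletion. With bafilomycin A1 the shares were 6.15% higher and 4.78% lower in rich medium, and 5.5% and 5.91% in depleted medium. With depletion under bafilomycin A1 they were 10.5% higher and 13.6% lower. The comparisons with both treatments, with depletion and with bafilomycin A1 in rich medium share the rich vehicle libraries. No list was tested against these shares, which apply to every list below. Of 27 mitochondrial β-oxidation genes tested, 4 were higher and 6 lower with both treatments, 4 higher and 5 lower with depletion, and 2 higher and 0 lower with bafilomycin A1 in rich medium. These counts lay near the shares of all genes. The list medians were -0.15, -0.15 and 0.00, and the count lower with depletion depended on the fit, as given at the end. The carnitine carrier gene SLC25A20 was higher by 1.10 with both treatments (edgeR adjusted p = 3.39e-05), and ACAD11, a dehydrogenase of very long chains, by 1.64 (adjusted p = 9.63e-05). ETFB, which passes electrons from the dehydrogenases to the respiratory chain, fell to 9.26 ± 2.60 CPM in depleted bafilomycin A1 and 11.9 ± 1.41 CPM in depleted vehicle libraries, against 25.5 ± 8.86 CPM in rich vehicle libraries (SD, n = 3 each, both called). The gain in rich medium of SLC25A20 (0.56, adjusted p = 0.0246) ended without rich bafilomycin A1 replicate 1 or 3 (adjusted p = 0.0522 and 0.0954) and without both libraries that stand apart (0.48, adjusted p = 0.0862), and that of the acyl-CoA synthetase ACSL5 (1.13, adjusted p = 0.0169) without rich vehicle replicate 1 or rich bafilomycin A1 replicate 1 or 2 (adjusted p = 0.0592, 0.062 and 0.0596).

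Of 17 peroxisomal oxidation genes 6 were higher and 3 lower with both treatments, 7 higher and 1 lower with depletion, and 2 higher and 1 lower with bafilomycin A1 in rich medium, with list medians of 0.42, 0.38 and 0.23. Without depleted bafilomycin A1 replicate 1 the first of these counts was 3 higher, and without replicate 2 or 3 of that group 1 was lower. CRAT, the carnitine acetyltransferase, averaged 33.3 ± 1.07 CPM in depleted bafilomycin A1, 28.3 ± 5.14 CPM in depleted vehicle and 21.5 ± 6.28 CPM in rich bafilomycin A1 libraries, against 8.54 ± 1.98 CPM in rich vehicle libraries (SD, n = 3 each). All 3 differences passed (edgeR adjusted p = 1.01e-05, 9.09e-05 and 0.00264). ACOX2, an oxidase of branched chains and bile acid intermediates, passed in the same comparisons (1.66, 1.48 and 1.21), and ABCD3, a peroxisomal importer, was lower in all of them (-1.33, -1.17 and -0.84). The ABCD3 call in rich medium ended without both libraries that stand apart (-0.63, adjusted p = 0.0515). In the comparisons without rich vehicle the list showed fewer gains. Depletion under bafilomycin A1 gave 2 higher and 1 lower (median 0.125), with 0 to 4 higher without 1 library. Bafilomycin A1 in depleted medium gave 0 higher and 2 lower (median -0.02), with 0 to 2 lower without 1 library.

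Of 23 genes for PPAR receptors and their cofactors, PPARA included, 13 were higher and 1 lower with both treatments, 12 higher and 2 lower with depletion, and 7 higher and 0 lower with bafilomycin A1 in rich medium. The list medians were 0.81, 0.46 and 0.34. Without rich bafilomycin A1 replicate 2 or 3, without depleted vehicle replicate 1, or without both libraries that stand apart, 4 were higher with bafilomycin A1 in rich medium. CREB3L3, a membrane-bound factor that works with PPARα in liver, averaged 5.39 ± 0.857 CPM in depleted bafilomycin A1, 3.21 ± 0.651 CPM in depleted vehicle and 5.83 ± 1.25 CPM in rich bafilomycin A1 libraries, against 1.34 ± 0.193 CPM in rich vehicle libraries (SD, n = 3 each, all called). RXRA, the partner of the receptor, was higher with depletion (1.07, edgeR adjusted p = 9.87e-05). LPIN1, a phosphatidate phosphatase that also coactivates PPARα, was higher with bafilomycin A1 in both media, by 1.07 in depleted medium (SE 0.21, adjusted p = 0.00501) and 1.06 in rich medium (SE 0.21, adjusted p = 0.00603), and was called in neither direction for depletion with vehicle. ESRRG, an orphan receptor, was lower with both treatments (-1.74) and with depletion (-1.38). For this list depletion under bafilomycin A1 gave 3 higher and 3 lower (median 0.25). That was 2 to 6 higher and 1 to 4 lower without 1 library, and 8 and 2 without both libraries that stand apart. Bafilomycin A1 in depleted medium gave 2 higher and 0 lower (median 0.14), with 1 to 5 higher without 1 library.

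Of 41 PPAR target genes, 6 of them members, 14 were higher and 3 lower with both treatments, 11 higher and 3 lower with depletion, and 10 higher and 0 lower with bafilomycin A1 in rich medium. The list medians were 0.23, 0.21 and 0.38. Without depleted vehicle replicate 1 depletion gave 7 higher and 1 lower, and without rich bafilomycin A1 replicate 2 the rich-medium response gave 6 higher. With both treatments 5 were lower without rich vehicle replicate 1, rich bafilomycin A1 replicate 2 or depleted bafilomycin A1 replicate 1, and 6 without rich vehicle replicate 2. That count was also 5 without both libraries that stand apart. FGF21, a fasting hormone of the liver that was named after its values were seen, was called higher in all 3. It ranged from 0.386 to 0.894 CPM in depleted bafilomycin A1, 0.335 to 0.406 CPM in depleted vehicle and 0.0684 to 0.744 CPM in rich bafilomycin A1 libraries, and was at 0 in all rich vehicle libraries. The treated means of FGF21 were 18.1, 11.4 and 9.48 times the floor of 3 reads over that group, 0.0336 CPM. These folds take no account of the spread of the treated libraries. With FGF21 at these values the list medians were the same. The FGF21 call in rich medium ended without rich bafilomycin A1 replicate 3 (adjusted p = 0.0646) and without both libraries that stand apart (0.0675). KLF10, a factor of the circadian and glucose response, was lower with both treatments (-1.35) and with depletion (-1.46). The comparisons without rich vehicle did not show the same gain in targets. Depletion under bafilomycin A1 gave 4 higher and 6 lower (median -0.11). That was 1 to 6 higher and 4 to 7 lower without 1 library, and 8 and 7 without both libraries that stand apart. Bafilomycin A1 in depleted medium gave 1 higher and 0 lower (median 0.08).

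Of 24 lipid droplet and lipolysis genes 9 were higher and 2 lower with both treatments, 8 higher and 2 lower with depletion, and 5 higher and 0 lower with bafilomycin A1 in rich medium, with list medians of 0.34, 0.54 and 0.55. The rich-medium count was 3 without any 1 of the rich bafilomycin A1 libraries or without both libraries that stand apart. CIDEB, a droplet fusion and lipoprotein loading protein, averaged 11.7 ± 3.94 CPM in depleted bafilomycin A1, 13.2 ± 1.91 CPM in depleted vehicle and 8.25 ± 3.62 CPM in rich bafilomycin A1 libraries, against 1.92 ± 1.22 CPM in rich vehicle libraries (SD, n = 3 each, all called). G0S2, an inhibitor of the lipase encoded by PNPLA2, was higher with depletion (2.06, SE 0.56, edgeR adjusted p = 0.0122). LIPG, an endothelial-type lipase, fell by 2.13 on the log2 scale with both treatments (SE 0.25, adjusted p = 1.14e-05). For this list depletion under bafilomycin A1 gave 1 higher and 5 lower (median 0.10). That was 0 to 1 higher and 2 to 5 lower without 1 library, and 4 and 4 without both libraries that stand apart. Bafilomycin A1 in depleted medium gave 1 higher and 4 lower (median 0.04), with 1 to 4 lower without 1 library.

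Of 15 genes of the pyruvate dehydrogenase switch 6 were higher and 3 lower with both treatments, 3 higher and 6 lower with depletion, 3 higher and 0 lower with bafilomycin A1 in rich medium, and 5 higher and 0 lower with bafilomycin A1 in depleted medium. Their medians were 0.26, -0.24, 0.20 and 0.21. The last count was 2 without depleted vehicle replicate 1 or 2 or depleted bafilomycin A1 replicate 3, and 3 without depleted bafilomycin A1 replicate 1 or 2. The third was 1 without rich bafilomycin A1 replicate 2. MPC1, a subunit of the mitochondrial pyruvate carrier, averaged 48.1 ± 13.2 CPM in depleted bafilomycin A1 libraries, against 17.9 ± 2.68 CPM in depleted vehicle libraries (SD, n = 3 each, edgeR adjusted p = 0.00129). PC, pyruvate carboxylase, was higher by 1.69 with both treatments (adjusted p = 1.51e-05). Of 10 ketone body genes 3 were higher and 2 lower with both treatments (median -0.13), and 3 higher and 2 lower with depletion (median 0.25), where 1 was higher without depleted vehicle replicate 1. The shares of all genes were 21.6% in each direction with both treatments, and 15.5% higher and 15.4% lower with depletion.

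Of 12 fatty acid uptake and binding genes 4 were higher and 4 lower with both treatments (median -0.08), against 21.6% of all genes in each direction. The count higher was 2 without depleted bafilomycin A1 replicate 2. With depletion 1 was higher and 5 lower, with a list median of 0.25, where 15.5% of all genes were higher and 15.4% lower. The count higher there was 2 without rich vehicle replicate 2 or rich bafilomycin A1 replicate 1 or 3, 4 without rich vehicle replicate 1 and 5 without both libraries that stand apart. FABP5, a fatty acid binding protein that delivers ligands to PPARs, averaged 0.879 ± 0.207 CPM in depleted bafilomycin A1, 4.40 ± 0.853 CPM in depleted vehicle and 4.74 ± 1.04 CPM in rich bafilomycin A1 libraries, against 12.2 ± 5.07 CPM in rich vehicle libraries (SD, n = 3 each). It fell by 3.79 with both treatments (SE 0.35, edgeR adjusted p = 1.35e-06), by 1.48 with depletion and by 1.37 with bafilomycin A1 in rich medium on the log2 scale, the last of which ended without rich bafilomycin A1 replicate 2 (adjusted p = 0.0538). Of 12 genes of malonyl-CoA and AMPK, which control CPT1A, 5 were higher and 1 lower with both treatments (median 0.21), and 3 higher and 3 lower with depletion (median 0.07). ACACB, the mitochondrial acetyl-CoA carboxylase whose product malonyl-CoA inhibits CPT1A, was 3.15-fold higher with both treatments (edgeR adjusted p = 2.12e-05) and 2.83-fold with depletion (adjusted p = 0.000132). The interaction called 0 genes of the mitochondrial oxidation list by edgeR, where 5 had an unadjusted p under 0.05.

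**Figure D5:**
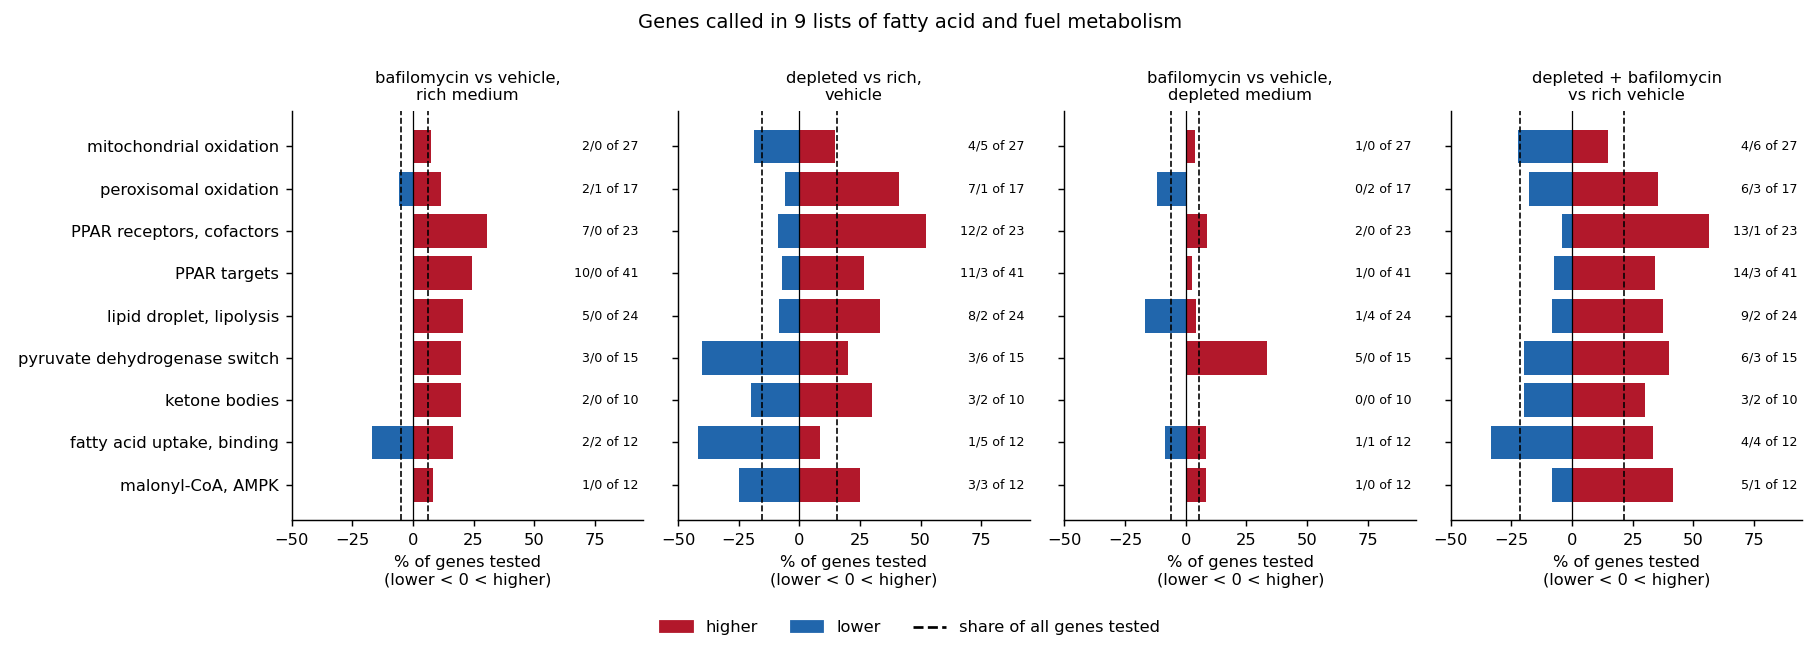
Share of the genes tested in 9 lists that were called higher (red, right of 0) or lower (blue, left of 0), in percent (x axis), for 4 comparisons, with counts at the right as higher/lower of tested. Dashed lines give the share of all 18047 genes called in each direction. With both treatments 13 of 23 genes for PPAR receptors and cofactors are higher, against 21.6% of all genes, and 4 of 27 mitochondrial oxidation genes.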

How the data were processed

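RNA of 12 Caco-2 libraries was sequenced after ribosomal RNA removal with a stranded kit, per the labels' protocols. The tables deposited per library hold the authors' estimated counts of reads, TPM values and gene lengths in bases, per the file headers, and 5.08% of the estimated counts are not whole. The authors also deposited whole-number counts for all libraries in 1 table, limited to the 13518 genes that reach 10 reads in every library and within 0.5 of the estimated counts. The submitters' processing notes name DRAGEN and GRCh38. Which annotation release was used, and whether counting used strand, is not given in the sources used here, and reads shared by overlapping genes may be split either way.

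Estimated counts were rounded. filterByExpr (minimum count 10, minimum total 15) left 18047 genes, scaled by TMM. Tests were robust quasi-likelihood tests in edgeR 4.0.16 (limma 3.58.1, R 4.3.3), from 1 fit of the 12 libraries to 4 group means, leaving 8 residual degrees of freedom. Calls had a Benjamini-Hochberg adjusted p under 0.05 over all genes, and SEs came from the log2 fold change and F. The test was checked on simulated counts. CPM per kb divides by each library's effective length.

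The members and the lists were chosen with earlier results of these data known. Named besides the members were up to 3 called genes per list and comparison with the largest fold changes that averaged 1 CPM or more, family relatives, and the 3 genes with the pattern most like each member's (log2 CPM, prior 2). Alternatives were DESeq2 1.42.0 size factors and test, no low-count filter, 6-library fits, a block for the replicate number, the authors' joint table, a minimum fold of 1.5, per-length values, and leaving out libraries. The length offset was added after seeing the data. Promoter windows and motifs came from RefSeq on GRCh38.p14, and gene spans and transcripts from GENCODE v29.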

Additional observations from a re-analysis of the deposited data

Results flagged for a closer look

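The bafilomycin A1 response of PPARA differed between the media by an interaction test. The log2 fold change was 0.40 in depleted medium and 1.69 in rich medium, a difference of -1.29 (SE 0.27, edgeR adjusted p = 0.0145). It was -0.77 (adjusted p = 0.207) with effective length as an offset, an alternative added after seeing the data.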

How the results depend on the processing

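Over all settings 892 of the recomputed member values kept their direction and side of the threshold, 15 gained a call, 9 lost one and 21 changed sign, the last in 11 of 42 member values. The number of members called was 1 at a minimum fold of 1.5 for bafilomycin A1 in rich medium, and 1 for bafilomycin A1 in depleted medium in a fit of only the 6 libraries compared. For depletion with vehicle it was 2 with the replicate block and in the authors' joint count table, 3 without both libraries that stand apart, and 1 to 3 without 1 library. For depletion under bafilomycin A1 it was 0 at the minimum fold and with the length offset, and 0 to 1 without 1 library. For the interaction it was 0 at the minimum fold and with the length offset. PLIN2 did not pass at the minimum fold for both treatments (edgeR adjusted p = 0.0551) or for bafilomycin A1 in rich medium (adjusted p = 0.0695). The cause was not tested.

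Replicate numbers went with a likeness between some of the libraries, and pairing itself was not tested. Over 18 same-numbered pairs the correlation of deviations from the group means was -0.08 to 0.29. The 6 pairs over 0.1 lay at 0.21 to 0.29, all among rich vehicle, depleted vehicle and depleted bafilomycin A1 libraries. Of 12 libraries, 5 were closest to their own number in all other groups. The fit to group means takes no account of replicate number. With the replicate block ACADVL was called lower with depletion (-0.47, edgeR adjusted p = 0.0191) and with both treatments (-0.43, adjusted p = 0.0226). It called 9 of 27 mitochondrial oxidation genes lower with depletion, against 5 without it, and 6 PPAR targets lower with depletion and 6 with both treatments, against 3 each. PPAR targets lower with both treatments were also 6 by DESeq2 and 9 with no low-count filter. The block raised the calls over all genes in each of the 6 comparisons. With it there were 1969 interaction calls, against 1116 without it. Bafilomycin A1 had 2832 against 1971 in rich medium and 3014 against 2058 in depleted medium. Depletion had 6504 against 5577 with vehicle and 5319 against 4352 under bafilomycin A1, and both treatments had 8468 against 7797.

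PDK4 changed sign without both libraries that stand apart, to 1.91 for bafilomycin A1 in rich medium, 2.93 for depletion, 2.00 for both treatments and -2.85 for the interaction. Without 1 library its log2 values ran from -3.34 to 1.74, -2.15 to 2.93, -3.08 to 2.00 and -2.68 to 2.40 in that order. With no low-count filter PDK4 was called lower in rich medium with bafilomycin A1 (-2.70, adjusted p = 0.00703) and with both treatments (-2.46, adjusted p = 0.00494), as it was with both treatments by DESeq2 (-2.58, adjusted p = 0.048). ACADM with bafilomycin A1 in rich medium was 0.19 without both libraries that stand apart and -0.20 to 0.074 without 1 library. The other values that changed sign without 1 library were not called with any library left out. CPT1A ran from -0.055 to 0.55 with depletion, -0.093 to 0.22 with bafilomycin A1 in depleted medium and -0.27 to 0.10 in depletion under bafilomycin A1. ACADVL ran from -0.15 to 0.19 with bafilomycin A1 in depleted medium and -0.33 to 0.0054 in depletion under bafilomycin A1, and ACADM there from -0.21 to 0.039.

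A fit of the 6 libraries compared gave 3 receptor and cofactor, 4 target, 2 droplet and 1 pyruvate switch genes higher with bafilomycin A1 in rich medium, and 7 target and 3 droplet genes higher with depletion. It ended the rich-medium calls of PPARD (adjusted p = 0.155), PDK1 (0.0657), ACSL5 (0.0646), SLC25A20 (0.175) and ACOX2 (0.0718), and with depletion those of PDK1 (0.0577) and G0S2 (0.0611). Over all genes, bafilomycin A1 in rich medium had 1971 calls, or 496 in that fit and 213 at a minimum fold of 1.5, and the interaction 1116, or 1981 by DESeq2 and 139 at the minimum fold. Depth limits PDK4, PPARGC1A and, in the shallow library, ANGPTL4, which had 12 reads there.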
